A study of Mus musculus with 6 samples.

Results

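The genes described here are the mouse protein-coding genes whose symbol is Zfp followed by a number only, other than Zfp36, that reached 1 FPKM (fragments scaled to exon length and to the library total) in at least 3 of 6 libraries. They were thus chosen by name and selected on their level over all libraries, not on the comparison of the groups, though their shift between the groups was known when they were chosen. Of 330 such genes listed in the deposited files, 230 met the rule, among 11114 genes of any kind that met it and 23886 genes listed. The cells were AML12, a non-tumour hepatocyte line set up from the liver of a mouse with a human TGF-alpha transgene. Poly(A) RNA was sequenced from 3 untreated samples (Control 2, 3 and 4) and 3 samples placed in a static magnetic field, one of constant strength and direction (SMF 1, 2 and 3). The sources used here state neither the strength of the field nor how long cells stayed in it. The labels do not say whether libraries of a group came from separate cultures, so the p-values below measure the spread between these libraries, which may be technical.

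Most numbered Zfp genes encode proteins with C2H2 zinc fingers, short loops held by a zinc ion that line up in arrays and read DNA base by base. Many also carry a KRAB domain at the N-terminus, whose A box binds the corepressor Trim28 (KAP1). Trim28 in turn brings in the H3K9 methyltransferase Setdb1 and HP1 proteins, and the chromatin becomes silent, often over transposons, retroviral copies or imprinted loci. KRAB genes arose by tandem duplication and sit in clusters of near-identical copies, while zinc finger genes without KRAB act as activators, repressors, RNA-binding proteins or ubiquitin ligases.

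The read totals behind the FPKM values, worked out from those values, were 15514530 to 18200516, and those of the groups overlapped. Of each total, 99.96% lay in genes whose reads were recovered, so the totals count reads assigned to genes. The FPKM summed over all genes did not overlap between the groups. It was 298090 to 300004 in controls and 301951 to 309514 in SMF libraries. The 13 listed hepatocyte and AML12 markers, of which 12 were tested, summed to 3753 to 3954 FPKM in controls and 3933 to 4135 FPKM in SMF libraries, most of it Krt8 and Krt18, and Alb averaged 29.2 FPKM in controls and 30.4 FPKM in SMF libraries. Of 10 listed markers of other cell types, 3 were tested and 2 were at 0 in every library, and the 10 summed to 11.9 to 13.4 FPKM in controls and 12.4 to 13.8 FPKM in SMF libraries. In these bulk samples, fewer cells that express a gene and less RNA per cell cannot be told apart.

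A KRAB A box was found in 123 of the 230 genes, and 107 had none. KRAB genes carried a median of 12 fingers and the others 7, with up to 36 in Zfp142. In 5 genes (Zfp839, Zfp703, Zfp185, Zfp330 and Zfp972) no finger matched the pattern used. Levels were low: the median over genes of the mean FPKM was 3.92, against 8.74 over all genes tested. It was 2.64 for KRAB genes and 6.57 for the others. Of the 38 genes above 10 FPKM, 7 were KRAB genes. The 2 classes also differed in composition, with a median exon GC content of 43.0% for KRAB genes and 50.4% for the others, against 49.3% over all genes tested. Median exon length was 4209 bases for KRAB genes and 5598 bases for the others, against 4204 bases over all genes tested.

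The rule was met in all 6 libraries by 211 genes, in 4 or 5 by 13, and in exactly 3 by 6 (Zfp229, Zfp40, Zfp974, Zfp992, Zfp52 and Zfp85). No gene met it through the libraries of a single group. Just inside the threshold, the third highest library of Zfp52 and of Zfp40 stood at the limit. Zfp52 had 0.571, 0.938 and 1.09 FPKM in Control 2, 3 and 4 and 0.774, 1.19 and 1.00 FPKM in SMF 1, 2 and 3. Zfp40 had 1.32, 1.07 and 0.930 FPKM in controls and 0.935, 1.02 and 0.931 FPKM in SMF libraries. Both genes overlapped between the groups. Just outside, Zfp738 had 0.987, 0.930 and 1.01 FPKM in controls and 0.984, 0.933 and 0.846 FPKM in SMF libraries, and Zfp420 reached 1 FPKM only in SMF 2. Of the 100 genes that did not meet the rule, 86 had a KRAB A box, and 5 were listed at 0 in all libraries.

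The median fold of the numbered Zfp genes was slightly below 0, and no single gene passed the main test. The median log2 fold of SMF against control, on the log2(FPKM + 1) scale, was -0.04 over the 230 genes and -0.01 over all genes tested. The fold was below 0 in 143 genes (62.2%), against 53.3% of all genes. By library, the median deviation of the 230 genes from the mean of the 6 libraries was 0.031, -0.0044 and 0.023 in Control 2, 3 and 4 and -0.057, -0.0033 and -0.0089 in SMF 1, 2 and 3. SMF 2 lay above Control 3, so the groups overlapped, and SMF 1 was farthest from 0. The median log2 fold was -0.027 without SMF 1 and -0.028 without Control 4. All 3 SMF values lay below all 3 control values in 34 genes (14.8%), where 12.7% of all genes did so. They lay above in 12 genes (5.22%), where 11.0% of all genes did so. These splits moved with the scaling, to 45 lower and 6 higher after rescaling to TPM, where 17.3% and 7.5% of all genes did so, and to 29 lower and 18 higher after quantile normalization, against 12.7% and 9.77%. The count of genes lower without overlap was 61 without Control 3 and 58 without SMF 2. That of genes higher without overlap was 30 without SMF 2 and 19 to 24 without any other library. For all genes tested, the shares were 20.3% lower without Control 3, and 24.8% lower and 19.1% higher without SMF 2.

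With limma on log2(FPKM + 1) and Benjamini-Hochberg adjustment over 11114 genes, 0 of the 230 genes passed an adjusted p of 0.05, as did 0.0% of all genes. At an unadjusted p below 0.05 there were 26 (11.3%), 19 lower and 7 higher, against 18.0% of all genes. A second test, limma-voom on the reads recovered from the FPKM steps, called 503 of 11096 genes and 6 of the 230 (2.61%), 4 lower and 2 higher, against 4.53% of all genes (2.36% lower and 2.17% higher). Reads per gene and library had a median of 325 and ranged from 13 to 6467, and 43 members had under 100 reads in some library.

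The 4 lower calls were Zfp763, Zfp871, Zfp292 and Zfp281, and the 2 higher calls were Zfp598 and Zfp513. The promoters of 3 of them are printed because they are calls of opposite direction and their promoters span a wide range of base composition. Sequences are from the RefSeq promoter table on build GRCm38.p6, 250 bases before to 50 after the start, on the gene's strand, with capitals marking the GC box GGGCGG on either strand. The stretches are chr17:33033332-33033631 (minus strand) for Zfp763, chr1:136624651-136624950 (plus strand) for Zfp281, and chr17:24669437-24669736 (plus strand) for Zfp598.
Zfp763: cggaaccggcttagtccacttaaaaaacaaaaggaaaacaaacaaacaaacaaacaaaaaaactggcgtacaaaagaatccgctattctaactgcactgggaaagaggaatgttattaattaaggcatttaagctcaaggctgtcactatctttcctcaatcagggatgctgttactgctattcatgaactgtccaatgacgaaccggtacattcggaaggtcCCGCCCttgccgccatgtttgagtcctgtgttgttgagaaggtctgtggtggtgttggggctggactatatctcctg
Zfp281: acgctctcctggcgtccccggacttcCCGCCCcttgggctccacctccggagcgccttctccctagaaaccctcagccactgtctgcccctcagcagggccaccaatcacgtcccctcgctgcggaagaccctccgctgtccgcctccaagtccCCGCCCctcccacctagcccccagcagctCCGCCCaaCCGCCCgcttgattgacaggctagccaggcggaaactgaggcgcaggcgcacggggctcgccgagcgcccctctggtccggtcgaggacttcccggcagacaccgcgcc
Zfp598: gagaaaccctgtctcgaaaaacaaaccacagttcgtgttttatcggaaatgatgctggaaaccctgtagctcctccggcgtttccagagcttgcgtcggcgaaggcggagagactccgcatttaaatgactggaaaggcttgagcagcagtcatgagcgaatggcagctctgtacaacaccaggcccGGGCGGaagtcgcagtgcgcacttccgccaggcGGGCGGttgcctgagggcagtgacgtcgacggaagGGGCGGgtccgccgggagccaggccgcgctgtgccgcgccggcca
The GC content of these 300 bases was 44.0% for Zfp763, 70.7% for Zfp281 and 61.7% for Zfp598, and they held 1, 4 and 3 GC boxes. The table matched 189 of the 230 genes, with 233 promoters. A GC box was present in 36.0% of 125 KRAB gene promoters and in 64.8% of 108 promoters of the other members. It was present in 64.2% of promoters of all genes tested and in 35.7% of all 32851 promoters in the table. The median GC content of these windows differed in the same order. It was 53.3% for KRAB genes, 62.3% for the other members, 61% for genes tested and 52.7% for all promoters. A match describes letters in the window and not a bound site, and no match says nothing of the factor.

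Zfp763, a KRAB gene with 13 fingers on chromosome 17, had the largest fold below 0. Its level was 1.91, 1.88 and 1.98 FPKM in Control 2, 3 and 4 and 1.20, 1.24 and 1.16 FPKM in SMF 1, 2 and 3. The groups were far apart relative to their spread, and the SMF mean was 37.9% below the control mean. The log2 fold was -0.41 (SE 0.087), with an adjusted p of 0.147 in limma and 0.0332 in limma-voom, and 0.0332 to 0.472 over the settings tried. Zfp871, a KRAB gene with 15 fingers from the same chromosome, had 6.51, 6.47 and 6.76 FPKM in controls and 5.32, 5.78 and 5.29 FPKM in SMF libraries. The groups did not overlap. A log2 fold of -0.23 (SE 0.057) had an adjusted p of 0.161 in limma and 0.0159 in limma-voom, and 0.0159 to 0.540 over the settings.

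Zfp292, a long zinc finger transcription factor without a KRAB domain, had 4.24, 3.66 and 4.53 FPKM in controls and 2.78, 3.63 and 3.36 FPKM in SMF libraries. Control 3 and SMF 2 nearly touched. Its log2 fold was -0.27 (SE 0.099), with an adjusted p of 0.221 in limma and 0.0350 in limma-voom, and 0.0350 to 0.700 over the settings. Zfp281, which restrains the pluripotency programme of stem cells, had 8.97, 7.82 and 8.23 FPKM in controls and 6.58, 7.02 and 7.02 FPKM in SMF libraries. Every SMF library was lower than every control. The log2 fold of -0.24 (SE 0.061) had an adjusted p of 0.164 in limma and 0.0414 in limma-voom, and 0.0414 to 0.492 over the settings.

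On the higher side, Zfp598, the ubiquitin ligase that marks collided ribosomes, had 26.6, 29.7 and 28.1 FPKM in controls and 32.3, 34.0 and 30.9 FPKM in SMF libraries. The log2 fold of 0.20 (SE 0.054) had an adjusted p of 0.167 in limma and 0.0328 in limma-voom, and 0.0328 to 0.541 over the settings. The groups did not overlap. Zfp513, without a KRAB domain, had 11.0, 12.6 and 10.6 FPKM in controls and 14.5, 13.9 and 13.6 FPKM in SMF libraries. Control 3 came nearest to the SMF libraries. Its log2 fold was 0.27 (SE 0.066), with an adjusted p of 0.161 in limma and 0.0442 in limma-voom, and 0.0442 to 0.511 over the settings. It shares 163 exonic bases with Snx17, and since no strand marking is stated, reads in that stretch cannot be assigned to either gene.

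**Figure D1:**
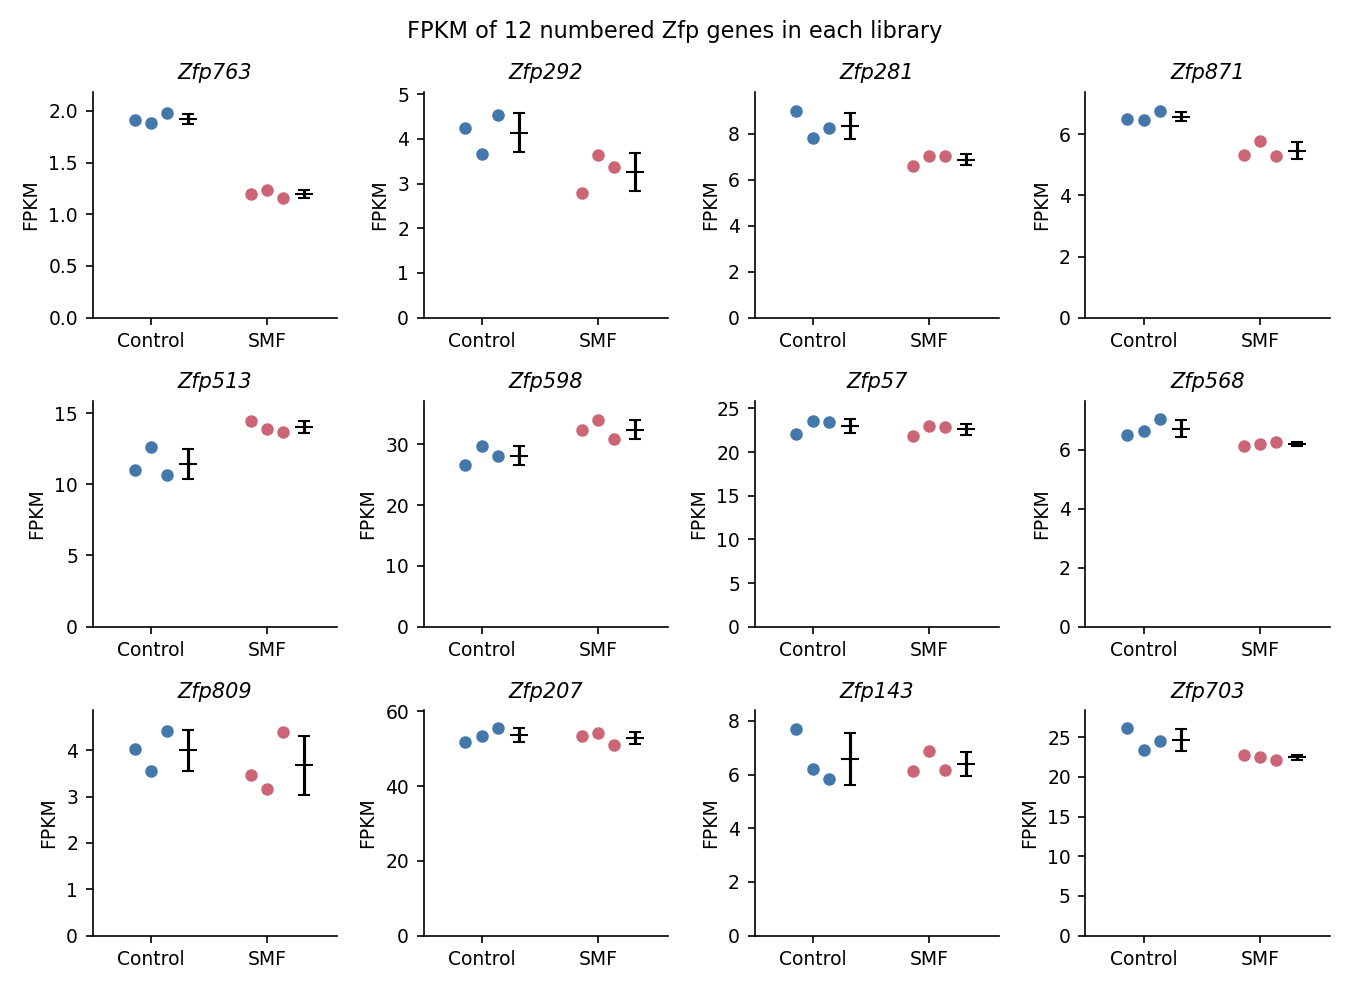
FPKM of 12 numbered Zfp genes in each library (points), with the mean and SD of 3 libraries beside them; each axis starts at 0. The groups are apart for the 6 limma-voom calls and for Zfp568 and Zfp703, and overlap for Zfp57, Zfp809, Zfp207 and Zfp143.

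None of the further members separated without overlap was called by either test. Among those whose higher group averaged 2 FPKM or more, the largest folds below 0 beside the calls belonged to Zfp808 (-0.27), Zfp367 (-0.22), Zfp866 (-0.21), Zfp346 (-0.21) and Zfp677 (-0.21). Zfp346, which binds double-stranded RNA, had 8.61, 9.58 and 7.96 FPKM in controls and 7.42, 7.87 and 6.93 FPKM in SMF libraries. Control 4 and SMF 2 were the nearest pair. The largest folds above 0 beside the calls belonged to Zfp316 (0.21), Zfp324 (0.14), Zfp623 (0.13), Zfp319 (0.12), Zfp219 (0.11) and Zfp592 (0.11). Zfp316 had 3.76, 3.80 and 3.37 FPKM in controls and 4.15, 4.56 and 4.43 FPKM in SMF libraries, and every SMF library was higher than every control. Zfp592, a partner of the chromatin reader Zmynd8, had 10.2, 10.4 and 10.1 FPKM in controls and 11.3, 11.6 and 10.6 FPKM in SMF libraries. SMF 3 lay just above the controls.

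The KRAB repressors with well described targets did not pass either test. Zfp57, which with Trim28 keeps DNA methylation at imprinting control regions, had 22.1, 23.5 and 23.5 FPKM in controls and 21.9, 23.0 and 22.9 FPKM in SMF libraries. The groups overlapped, with a log2 fold of -0.03 (SE 0.044). Zfp568, which silences a placental promoter of Igf2, had 6.49, 6.63 and 7.04 FPKM in controls and 6.13, 6.19 and 6.28 FPKM in SMF libraries. All SMF values were lower, with a log2 fold of -0.10 and an adjusted p of 0.357 in limma. Zfp809, which brings Trim28 to retroviral primer binding sites, had 4.03, 3.55 and 4.42 FPKM in controls and 3.46, 3.17 and 4.40 FPKM in SMF libraries. SMF 3 was nearly as high as the highest control.

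The 6 most abundant members had no KRAB domain. Zfp706, a small protein with a single finger, had 65.0, 62.9 and 64.8 FPKM in controls and 59.0, 61.1 and 62.1 FPKM in SMF libraries. The groups did not overlap, and the log2 fold was -0.08 (SE 0.036), with an adjusted p of 0.291 in limma. Zfp207, which holds Bub3 at kinetochores and binds spindle microtubules, had 51.9, 53.4 and 55.7 FPKM in controls and 53.4, 54.1 and 51.2 FPKM in SMF libraries. Its groups overlapped, with a log2 fold of -0.02. Next in level came Zfp740 (mean 33.7 FPKM, log2 fold -0.05), Zfp598, Zfp106 (28.4 FPKM, -0.10), an RNA-binding protein needed by motor neurons, and Zfp358 (25 FPKM, 0.05). Apart from Zfp598, these overlapped between the groups.

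Among regulators of transcription and RNA, Zfp148, a factor that binds GC-rich promoters, had 5.38, 4.85 and 5.38 FPKM in controls and 4.43, 4.76 and 4.20 FPKM in SMF libraries. Control 3 and SMF 2 were close, and the log2 fold was -0.18 (limma adjusted p = 0.229, limma-voom adjusted p = 0.0674). Zfp326, part of a complex that links RNA polymerase II to splicing, had 5.67, 5.53 and 5.91 FPKM in controls and 5.04, 5.09 and 5.11 FPKM in SMF libraries. The groups were apart, with a log2 fold of -0.14 (limma adjusted p = 0.240). The groups overlapped for Zfp143, which binds promoters (log2 fold -0.03), Zfp410, the activator of Chd4 (-0.11), Zfp91, a ubiquitin ligase (-0.12), Zfp687 (-0.05), Zfp217 (0.02), Zfp644 (-0.19) and Zfp830 (0.04). Zfp532 did not meet the FPKM rule.

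The folds of the members followed the GC content of their exons, and so did those of other genes. Across the 230 genes the fold and the GC content had a Pearson r of 0.467 and a Spearman rho of 0.462. Across all 11055 genes tested with a known GC content, r was 0.389 and rho 0.508. These are descriptions across genes measured in the same libraries, which are not independent replicates. The r was 0.367 within the 123 KRAB genes and 0.618 within the 107 others. With exon length, r was -0.325 for the members and -0.273 for all genes tested.

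**Figure D2:**
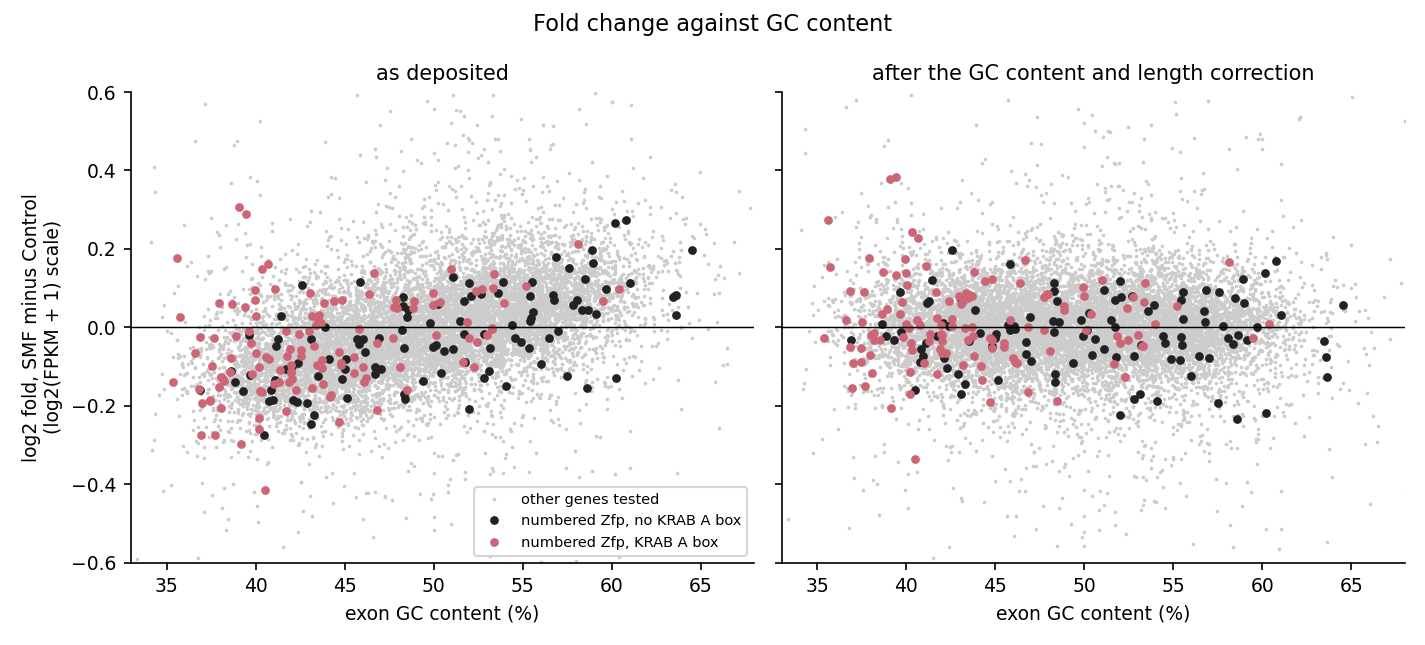
Log2 fold of SMF against control on the log2(FPKM + 1) scale (vertical) against exon GC content in percent (horizontal), for numbered Zfp genes with and without a KRAB A box and for the other genes tested (grey; folds beyond 0.6 and GC contents outside the axis are not drawn). On the left the members slope upwards with the grey cloud (r = 0.467 and 0.389). On the right they lie around 0 at every GC content, after the correction, which removes such a slope by design.

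Members and other protein-coding genes of like composition had medians that ran the same way. Of the 70 members under 42% GC, 80.0% had a fold below 0, with a median of -0.11, and of 1192 other protein-coding genes under 42% GC, 88.0% had, with a median of -0.10. The groups did not overlap, lower in SMF, in 28.6% of these members and 27.8% of these other genes. At 52% GC or more, 33.3% of 60 members had a fold below 0, with a median of 0.06, against 26.0% of 3545 other genes, with a median of 0.06. There, 15.0% of members and 21.5% of other genes lay higher in SMF without overlap. From 42% to 47% GC the medians were -0.08 for members and -0.06 for other genes, and from 47% to 52% GC they were 0.00 and -0.01.

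Level alone left a gap at the low end. Below a mean of 2 FPKM the median fold was -0.10 for 54 members and -0.04 for 869 other protein-coding genes, and from 2 to 5 FPKM it was -0.07 for 87 members and -0.05 for 1889 others. Lower in SMF without overlap were 22.2% of these members and 11.0% of these others below 2 FPKM. The shares were the other way round from 2 to 5 FPKM, at 13.8% and 16.7%. From 5 to 10 FPKM both medians were -0.03, and at 10 FPKM or more they were 0.02 and 0.01. In classes of both level and GC content, some medians matched and others did not. Under 5 FPKM and under 42% GC, the median was -0.11 for 55 members and -0.11 for 547 others, and under 5 FPKM at 52% GC or more it was 0.08 for 22 members and 0.02 for 706 others. At 5 FPKM or more and under 42% GC it was -0.07 for 15 members and -0.10 for 645 others. By length, the median was 0.05 for 50 members under 3000 bases and 0.05 for other genes of that length, and -0.09 for 73 members of 6000 bases or more and -0.06 for others.

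**Figure D3:**
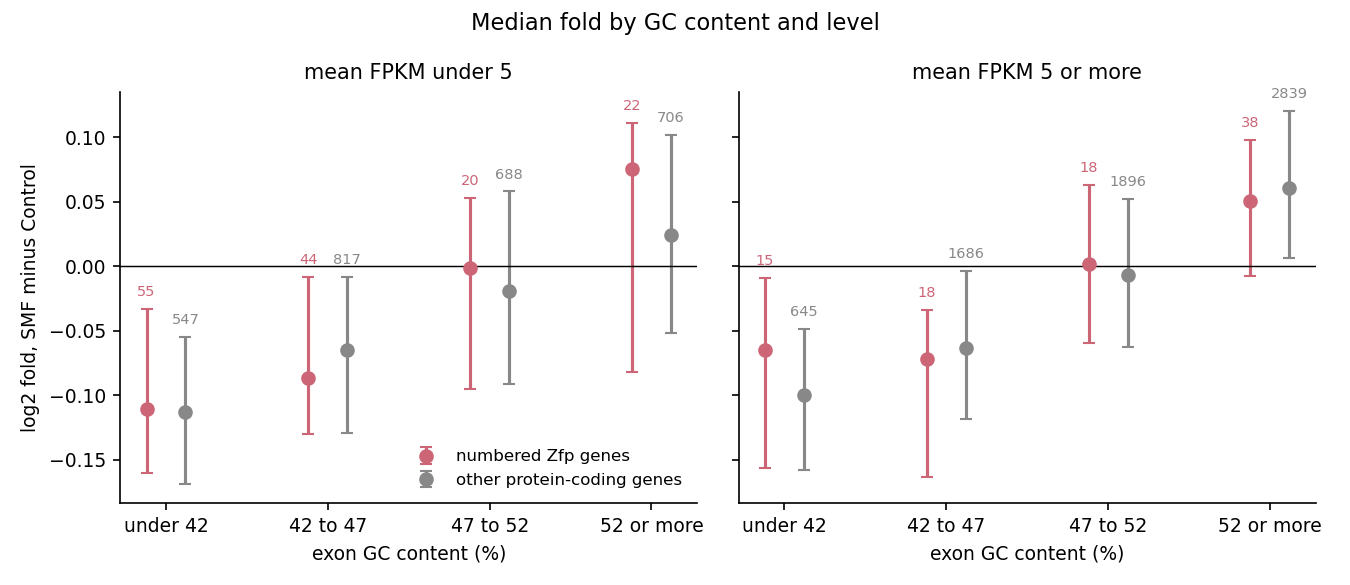
Median log2 fold (points) and interquartile range (bars) of numbered Zfp genes and of other protein-coding genes, in 4 classes of exon GC content in percent, for genes with a mean under 5 FPKM and at 5 FPKM or more; numbers give genes per class. Both sets run from below 0 under 42% GC to above 0 at 52% or more, and in every class the interquartile ranges of the 2 sets overlap.

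The library medians showed which libraries carried the pattern. As deviations from the mean of the 6 libraries on the log2(FPKM + 1) scale, the 70 members under 42% GC had medians of 0.07, 0.00 and 0.09 in Control 2, 3 and 4 and of -0.11, -0.00 and -0.04 in SMF 1, 2 and 3. Control 3 and SMF 2 lay side by side near 0. The 60 members at 52% GC or more ran the other way, at -0.04, -0.01 and -0.03 among the controls and 0.06, -0.01 and 0.02 among the exposed libraries, so SMF 2 lay below Control 3. The 1192 other protein-coding genes under 42% GC had 0.06, 0.01 and 0.09 among the controls and -0.11, 0.01 and -0.06 among the exposed libraries. What sets this GC content pattern apart between libraries was not tested.

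**Figure D4:**
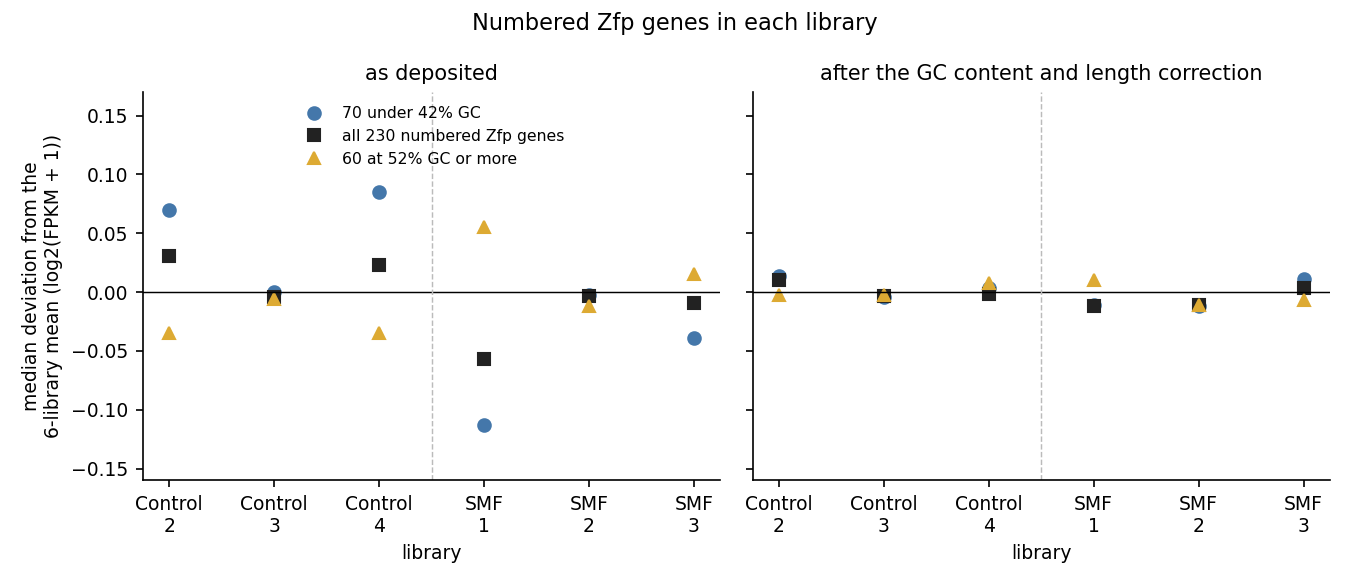
Median deviation of numbered Zfp genes from the 6-library mean, in log2(FPKM + 1) units, for each library, over all 230 genes, the 70 under 42% GC and the 60 at 52% GC or more. As deposited, SMF 1 lies farthest from 0 (-0.11 under 42% GC) and Control 3 and SMF 2 lie near 0. All medians lie near 0 after the correction, which largely sets this by design.

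A loess trend on GC content and exon length, fitted on 11055 genes, was removed from every library (called the correction here). This brought the members close to the rest. The members were among the genes fitted, so a flat relation to GC content afterwards is largely set by the step itself. Any difference between the groups that ran with GC content would be removed too. The median log2 fold of the 230 genes became -0.01 and that of all genes 0.00, and 122 members (53.0%) had a fold below 0 against 50.1% of all genes. Members without overlap became 15 lower and 16 higher, against 9.02% and 9.65% of all genes. The KRAB genes went from a median of -0.06, with 80 of 123 below 0, to 0.00, with 61 below 0. The members without KRAB went from -0.03, with 63 of 107 below 0, to -0.02, with 61 below 0. By limma-voom with the correction, the medians were -0.022 for all members, -0.018 for KRAB genes and -0.024 for the others. The median of all genes was then -0.0006. Below a mean of 2 FPKM the median was -0.040 for 45 KRAB genes and -0.061 for 9 members without KRAB. For 869 other protein-coding genes of that level it was -0.0046. From 2 to 5 FPKM it was -0.0090 for 53 KRAB genes, -0.032 for 34 members without KRAB and -0.0080 for 1889 others. With the correction, limma called 0 members and 0.0% of all genes, with 20 members (8.70%) and 12.9% of all genes at an unadjusted p below 0.05. Under the same correction limma-voom called 1 member, Zfp703, lower, against 0.28% of all genes in that direction. On the limma-voom scale with the correction, 16 members lay lower and 19 higher without overlap, against 8.92% and 9.6% of all genes.

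The 6 limma-voom calls kept their direction and stayed without overlap after the correction, with smaller folds: -0.33 for Zfp763, -0.17 for Zfp281, -0.16 for Zfp292, -0.11 for Zfp871, 0.17 for Zfp513 and 0.12 for Zfp598. None of the 6 was a limma-voom call after it, and their adjusted p ran from 0.0878 for Zfp763 to 0.308 for Zfp871. Zfp703, a corepressor of the luminal breast lineage, had 26.1, 23.4 and 24.5 FPKM in controls and 22.7, 22.5 and 22.1 FPKM in SMF libraries. It lies at 60.2% GC, where other genes tended upwards, and its log2 fold went from -0.13 to -0.22 with the correction (limma-voom adjusted p = 0.0488, and 0.0488 to 0.561 over the settings). Zfp207, at 39.6% GC, went from overlapping groups at -0.02 to non-overlapping groups at 0.09. Zfp326, Zfp148, Zfp568 and Zfp706 overlapped between groups after the correction, with log2 folds of -0.02, -0.07, -0.06 and -0.01.

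Many members lie beside each other along the chromosomes. In runs of numbered Zfp genes no more than 500 kb apart, counting only runs with at least 4 members, 14 runs held 96 members, 74 of them KRAB genes. The largest, from Zfp160 to Zfp13 on chromosome 17, held 19 members, all KRAB, with a median GC content of 38.7%, a median log2 fold of -0.07 and 11 folds below 0. Another run of chromosome 17, from Zfp871 to Zfp414, held Zfp763 and Zfp871 among 7 members and had the lowest median, -0.16. The run with the highest GC content among these 14, the 6 members from Zfp628 to Zfp580 on chromosome 7, none KRAB, had a median GC content of 58.9% and a median log2 fold of 0.08. The highest median fold, also 0.08 when rounded, was that of 9 members from Zfp553 to Zfp646 on the same chromosome, at 53.3% GC. With the correction the medians of these 4 runs became 0.01, -0.07, 0.02 and 0.01. Reads that map to several near-identical KRAB copies make the values of clustered genes uncertain, since the sources used here do not state how such reads were treated.

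**Figure D5:**
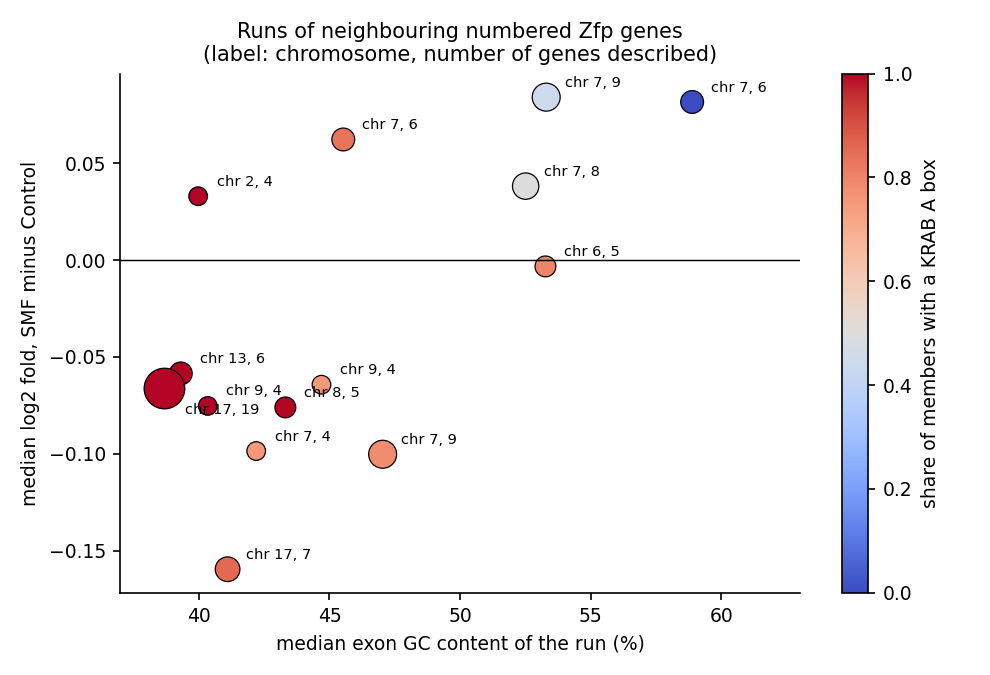
Median log2 fold of SMF against control (vertical, log2(FPKM + 1) scale) against median exon GC content in percent (horizontal) for 14 runs of neighbouring numbered Zfp genes; area grows with the number of members and colour gives the share with a KRAB A box. The all-KRAB run of 19 genes on chromosome 17 lies at 38.7% GC and -0.07, and the run of chromosome 7 without KRAB at 58.9% GC and 0.08.

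A list of partners of the KRAB corepressor and of H3K9 methylation held 43 genes, of which 41 were tested. The limma test called 0 of them (0.0% of all genes), with 11 (26.8%) at an unadjusted p below 0.05, 10 of them lower, against 18.0% of all genes. Of the same 41, limma-voom called 2 (4.88%), both lower, against 4.53% of all genes. Of the 41, 29 had a fold below 0, with a median log2 fold of -0.05, and 11 lay lower and 2 higher without overlap, where 12.7% and 11.0% of all genes did so. With the correction the median became -0.03, and 12 lay lower (29.3%) and 2 higher without overlap, against 9.02% and 9.65% of all genes. Trim28 itself had 167, 173 and 170.4 FPKM in controls and 177, 169 and 173 FPKM in SMF libraries. Its groups overlapped, with a log2 fold of 0.02 (SE 0.033). Setdb1 had 13.6, 13.6 and 13.4 FPKM in controls and 13.4, 13.5 and 13.8 FPKM in SMF libraries, also with overlap.

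The 2 limma-voom calls in that list were Hells and Cbx3. Hells, a remodelling enzyme needed for DNA methylation of repeats, had 19.3, 19.9 and 22.8 FPKM in controls and 14.7, 18.2 and 16.3 FPKM in SMF libraries. Its log2 fold was -0.32, with an adjusted p of 0.164 in limma, 0.00588 in limma-voom and 0.0692 in limma-voom with the correction. Cbx3, an HP1 protein, had 11.4, 11.0 and 11.4 FPKM in controls and 9.67, 9.69 and 9.08 FPKM in SMF libraries. Its log2 fold was -0.23, with an adjusted p of 0.147 in limma, 0.0228 in limma-voom and 0.232 in limma-voom with the correction. Both genes were lower in 3 of 3 SMF libraries.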

How the data were processed

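Poly(A) RNA libraries of untreated and SMF-exposed AML12 cells, 3 each, were compared. The authors deposited FPKM per gene and library, 1 file each. The submitters' processing notes name the build GRCm39, HISAT2 (2.1.0) and Bowtie2 (2.2.3), without their roles. The sources used here state no counting tool, strand setting, annotation or treatment of multi-mapping reads. Groups and replicate numbers came from sample titles.

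Symbols, gene type, exon length and GC content came from GENCODE M21 (build GRCm38), which named 23529 of 23886 identifiers. Genes at 1 FPKM or more in at least 3 libraries were tested two-sided on log2(FPKM + 1) with limma (3.58.1, R 4.3.3), a variance trend and Benjamini-Hochberg adjustment over all of them. Fold changes on this scale understate those of low genes. Reads were recovered from the FPKM steps: at the M21 length, the values of 98.1% of 21741 genes were whole within 0.02 reads in all libraries. Library totals were then 15514530 to 18200516 reads, and limma-voom was run on the 11096 tested genes with recovered reads. The correction was a loess (span 0.3) on GC content and log2 length in each library.

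Proteins were translated from the longest M21 coding sequence. KRAB A boxes were found with a profile in pyhmmer 0.12.3 (E-value under 1e-05), and fingers by the C2H2 spacing of cysteines and histidines. Runs used the M21 gene order. Of the members, 73 shared exonic bases with another gene.

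The members and lists were chosen with earlier results of these data known. Named members were those past the limma threshold, then up to 8 per direction with no overlap, an average of 2 FPKM or more in the higher group and the largest fold, then the 6 highest in level, those nearest the FPKM threshold, and known regulators. The limma-voom calls, including Zfp763, Zfp703, Hells and Cbx3, the printed promoters, the motif, the GC content, level and length classes and the genes of the observations were chosen after their values were seen. Alternatives were other pseudocounts, filters and scalings, no variance trend, the correction, limma-voom, a replicate block and leaving out each library. The fits were tested on simulated data. Figures used matplotlib 3.10.9 in Python 3.11.15.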

Additional observations from a re-analysis of the deposited data

How the results depend on the processing

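The median log2 fold of the 230 members, -0.039 as reported, kept its sign in all settings run. It was -0.0051 with a filter at 5 FPKM (92 members), -0.064 after rescaling to TPM (-0.039 over all genes), -0.0090 with the GC content and length correction, -0.022 by limma-voom with the correction (129 members below 0), and -0.027 to -0.056 when each library was left out in turn. With the replicate block it was -0.013, with 129 members below 0 and 0 members called (19 of all genes). Numbers 1 and 4 each occur in a single library, so in that fit SMF 1 and Control 4 add nothing to the fold. The fold then rests on Control 2 and 3 against SMF 2 and 3, with little left to measure spread. This limma fit gave the highest adjusted p over the settings for Zfp281 (0.492), Zfp292 (0.700) and Zfp513 (0.511). The block rests on numbers alone. Deviations of same-numbered libraries had a correlation of 0.0585 for number 2 and 0.046 for number 3. Those of differently numbered libraries ran from -0.148 to 0.107. The sources used here do not say whether equal numbers mark a pair, and these correlations cannot decide it. Members called lower, 0 by limma, were 4 by limma-voom and 1 by limma-voom with the correction, and those called higher were 2 by limma-voom. Members lower without overlap (34) became 10 of 92 with the filter at 5 FPKM (12.5% of all genes), 15 with the correction (9.02%), 16 with limma-voom and the correction (8.92%), and 42 to 61 when a library was left out (15.6% to 24.8%). Members higher without overlap (12) became 6 after TPM (7.5% of all genes), 19 with limma-voom and the correction (9.6%), and 19 to 30 when a library was left out (14.2% to 19.1%). Members below 0 (143) were 47 of 92 with the filter at 5 FPKM, and 134 to 145 when a library was left out. Of 653 fold values of named members under the alternatives, 603 moved by no more than the spread and kept their side of the threshold, 43 moved further, and 7 passed the threshold. A fold had the other sign in 17 of them, 7 with a library left out, 4 with the correction, 3 with limma-voom and the correction, 2 with the block and 1 after TPM, in 7 members whose groups overlapped as reported. In 43 members some library held under 100 reads, which limits what could be seen. Where a value moved and no smaller set of genes or libraries accounts for it, the cause was not tested.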

Other observations

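Other families of C2H2 genes, taken by symbol, differed from each other in their values. Of 33 tested Zbtb genes, which carry a BTB domain in place of KRAB, 19 had a log2 fold below 0, with a median of -0.06, and 3 (9.09%) lay lower without overlap, against 12.7% of all genes. With the GC content and length correction their median was -0.0012. Of 11 Klf genes, 8 were below 0, with a median of -0.07, and 3 (27.3%) lay lower without overlap. With the correction the Klf median was -0.08 and 4 genes (36.4%) lay lower without overlap, against 9.02% of all genes. Of 7 Zkscan genes, 6 were below 0, with a median of -0.08, and with the correction 7 were, with the same median, while 1 gene lay lower without overlap in both. Of 7 Zscan genes, 3 were below 0, with a median of 0.02, and 0.03 with the correction. The numbered Zfp genes had medians of -0.04 and -0.01. With 7 to 33 genes a family, these are descriptions.

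Zfp65, an AT-rich KRAB gene (39.5% GC), stood against its class. It had 1.12, 1.73 and 1.40 FPKM in controls and 1.80, 2.1 and 1.92 FPKM in SMF libraries, without overlap and with a log2 fold of 0.29, and 0.38 with the correction. It was the only member under 42% GC that lay higher in SMF without overlap before the correction, and its limma-voom adjusted p was 0.118. Its near neighbour Zfp85 had 0.843, 1.07 and 0.772 FPKM in controls and 1.69, 1.57 and 0.849 FPKM in SMF libraries, with overlap at SMF 3. The run on chromosome 13 that holds both did not rise as a whole. Of its 6 members, 4 had a fold below 0, and 2 lay lower without overlap. The median log2 fold of the run was -0.06, and 0.05 with the correction.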
